A study of Homo sapiens with 4 samples.

Results

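The promoters described here are the H3K27ac peaks of the prostate cancer line DU-145 that were selected on the deposited peak lists by position. A peak was kept when no base of it overlapped a peak of COLO-205, OVCAR-3 or SKOV-3 and its summit lay within 1 kb of the transcript start of a protein-coding gene. Of 75468 DU-145 peaks, 64006 lay in the part of the genome used, without chromosome 14, a window of chromosome 22 and the sex chromosomes. Of these, 16126 had their summit within 1 kb of a start, and 3668 of those, which is 22.7% of the promoter peaks, met no peak of another line. They are called DU-145-only promoter peaks below, and the other 12458 are called shared promoter peaks. The DU-145-only promoter peaks touched 3123 of 18272 protein-coding genes (17.1%). For 812 genes (4.44%) no start at all had a base of another line's peak within 1 kb, and these are called genes marked in DU-145 alone. All 3 percentages follow from the rule and are given as a background for the counts that follow, not as a finding.

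H3K27ac is the acetylation of lysine 27 of histone H3. It is laid down by the coactivators p300 and CBP on the nucleosomes that flank active promoters and enhancers, and at promoters it usually peaks just downstream of the start, on the first nucleosome of the transcribed side. Promoters of widely used genes mostly lie in CpG islands and carry the mark in many cell types, while tissue-restricted genes more often start in CpG-poor DNA.

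The study profiled the mark in 4 cancer lines with 1 library each, to ask whether predicted non-coding mutations lie in active regions. DU-145 (prostate, grown in Eagle's minimal essential medium) was compared with COLO-205 (colon, RPMI), OVCAR-3 (ovary, RPMI 1640) and SKOV-3 (ovary, McCoy's 5a), all in medium with fetal bovine serum and with the same H3K27ac antibody. Without replicates no comparison below has a test, line and library cannot be told apart, and the intervals given cover counting error only. A gene with no listed peak is called unmarked, which says that no peak passed the authors' threshold and not that the mark is absent. The depth recovered from the peak lists was about 36000000 tags in DU-145, 34200000 in OVCAR-3, 29800000 in COLO-205 and 22400000 in SKOV-3. The list of SKOV-3 stands apart, with 14001 peaks against 75468 to 85576 in the others. Scaled to the tag number and fragment length of the other libraries, 98.0% of the DU-145-only promoter peaks would still have reached the lowest p-value listed in COLO-205 and 98.5% that in OVCAR-3, but 65.9% that in SKOV-3. Without the SKOV-3 list the peaks numbered 3793 and the genes marked in DU-145 alone 893. The OVCAR-3 list carried the most weight, and without it the same counts were 7604 and 2734. Without the COLO-205 list they were 4263 and 1230.

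The line was first checked against markers of its tissue. Of 14 prostate luminal markers on the chromosomes used, 7 had a DU-145 peak at a start, among them KRT8 and KRT18, the keratins of simple epithelia, which were marked in all 4 lines. The androgen targets KLK2, KLK3 and KLK4, the surface enzyme FOLH1, the channel TRPM8 and the homeobox factor HOXB13 were unmarked in DU-145, and the gene of the androgen receptor lies on a chromosome that was not used. The basal markers KRT5 and TP63 were unmarked too, and 6 of 10 basal markers had a DU-145 peak. Of 12 neuroendocrine markers 1 was marked in DU-145. The defining secretory markers of prostate were thus missing from the DU-145 list, and the label prostate rests on the origin of the line.

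Sequences upstream of 7 starts show the kinds of promoter that met the rule. They are the 2 with the strongest peaks among starts unmarked in the other lines (L3MBTL4 and EDIL3), EPAS1 as one of the widest, CDKN1A as a gene of general importance in cancer, and IL11, IFI6 and EREG as signaling genes with fewer CpGs. Each stretch lies in hg19 (GRCh37) and runs 5′ to 3′ on the strand of its gene. It ends at the first base before the canonical start that is in no annotated exon. Capitals mark the letters of any of 15 transcription factor motifs on either strand. The stretches are chr18:6414911-6414999 (minus strand), chr5:83680699-83680798 (minus strand), chr2:46524446-46524545 (plus strand), chr6:36646387-36646486 (plus strand), chr19:55881832-55881931 (minus strand), chr1:27998724-27998823 (minus strand) and chr4:75230762-75230861 (plus strand).
L3MBTL4: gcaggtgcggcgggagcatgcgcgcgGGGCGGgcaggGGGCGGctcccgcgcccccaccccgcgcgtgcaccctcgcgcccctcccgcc
EDIL3: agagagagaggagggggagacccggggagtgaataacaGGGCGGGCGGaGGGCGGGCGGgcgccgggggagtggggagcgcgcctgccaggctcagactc
EPAS1: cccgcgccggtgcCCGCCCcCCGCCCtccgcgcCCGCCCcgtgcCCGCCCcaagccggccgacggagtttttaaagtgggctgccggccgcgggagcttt
CDKN1A: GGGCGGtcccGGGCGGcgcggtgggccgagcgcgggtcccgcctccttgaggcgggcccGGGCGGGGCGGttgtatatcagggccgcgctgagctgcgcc
IL11: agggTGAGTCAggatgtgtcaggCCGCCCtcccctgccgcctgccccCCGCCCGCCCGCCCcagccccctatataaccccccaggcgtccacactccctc
IFI6: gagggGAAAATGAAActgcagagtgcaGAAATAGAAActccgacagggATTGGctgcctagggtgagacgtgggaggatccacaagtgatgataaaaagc
EREG: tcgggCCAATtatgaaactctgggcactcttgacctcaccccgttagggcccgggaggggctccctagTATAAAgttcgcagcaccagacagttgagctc

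Capitals in L3MBTL4, EDIL3, EPAS1 and CDKN1A are all GC boxes (GGGCGG or its complement CCGCCC), the sites that SP and KLF factors can bind. IL11 holds an AP-1 motif (TGANTCA) ahead of its GC boxes. IFI6 holds a pair of motifs of the IRF family, as is known for interferon-stimulated genes, and a reversed CCAAT box. EREG has a CCAAT box and a TATA box (TATAAA). A match of letters does not show binding.

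A second set of 4 starts comes from one cluster of zinc finger genes on chromosome 19 that holds 12 genes marked in DU-145 alone. They are shown because they share a run of letters, TTCTGGG, which stands in capitals together with the other motifs. The stretches are chr19:44488222-44488321 (plus strand), chr19:44556089-44556188 (plus strand), chr19:44617452-44617551 (plus strand) and chr19:44576212-44576311 (plus strand).
ZNF155: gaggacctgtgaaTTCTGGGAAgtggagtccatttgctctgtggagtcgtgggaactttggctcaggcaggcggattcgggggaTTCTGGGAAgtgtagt
ZNF223: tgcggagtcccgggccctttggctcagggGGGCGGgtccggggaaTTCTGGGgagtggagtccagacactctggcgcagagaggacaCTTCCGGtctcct
ZNF225: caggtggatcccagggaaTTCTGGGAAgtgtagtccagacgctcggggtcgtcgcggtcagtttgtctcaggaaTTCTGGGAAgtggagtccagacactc
ZNF284: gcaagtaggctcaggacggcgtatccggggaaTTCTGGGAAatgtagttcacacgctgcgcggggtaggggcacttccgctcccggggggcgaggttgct

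DU-145-only promoter peaks fell into 2 kinds of nearly equal number. At 1825 of them (49.8%, exact 95% interval 48.1 to 51.4) the nearest start had no base of another line's peak within 1 kb, and these are called lone peaks. The other 1843 lay beside a peak of another line that they did not touch. Here the median distance to the nearest such peak was 298 bp, and 89.6% of these starts also carried a shared DU-145 peak. The other line was OVCAR-3 at 85.4% of these starts, COLO-205 at 61.2% and SKOV-3 at 38.8%, and 527 starts were marked in all 3. Peaks of the second kind are thus mostly extra summits at promoters that are also marked elsewhere. Lone peaks had their nearest neighbor of another line at a median of 7204 bp, and for 759 it was over 10 kb and for 63 over 100 kb away.

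Both kinds had lower medians of height and width than the shared promoter peaks. Fold enrichment, the tags at the summit over the local background as the authors' peak caller gave it, had a median of 3.95 in lone peaks, 3.79 in peaks beside another line's and 4.38 in shared ones. The median width was 377 bp, 340 bp and 674 bp in the same order. At the summit the median number of tags was 33, 36 and 63. A width of 1 kb or more was reached by 142 lone peaks, 33 peaks beside another line's and 3551 shared peaks, which is 7.78%, 1.79% and 28.5%. Height and width come from the list that the rule used and are given as a description.

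The rule named no side of the start. It did exclude overlap with another line's peak, so the position of peaks beside one is bound up with the rule and is given as a description. Lone peaks had 55.8% of their summits downstream of the start and their most frequent bin at 100 to 200 bp downstream, with 16.1% of them. Shared peaks had 65.6% downstream and 27.6% in that bin. Peaks beside another line's had 41.8% downstream and were most frequent 300 to 400 bp upstream, where 12.0% of them lay. The summit lay within 1 kb of the canonical start of a gene in 54.2% of lone peaks, 72.2% of peaks beside another line's and 88.8% of shared peaks, so that many lone peaks sat at alternative starts inside or ahead of their genes. The 3 peaks nearest inside the limit were those of DENND6A, MZB1 and NIPSNAP3B at 999 bp, with folds of 6.42, 3.21 and 3.79. The 3 nearest outside were at ATP1B1, SH3BP5L and GRAMD1B at 1001 bp, with folds of 4.34, 3.72 and 5.45.

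**Figure D1:**
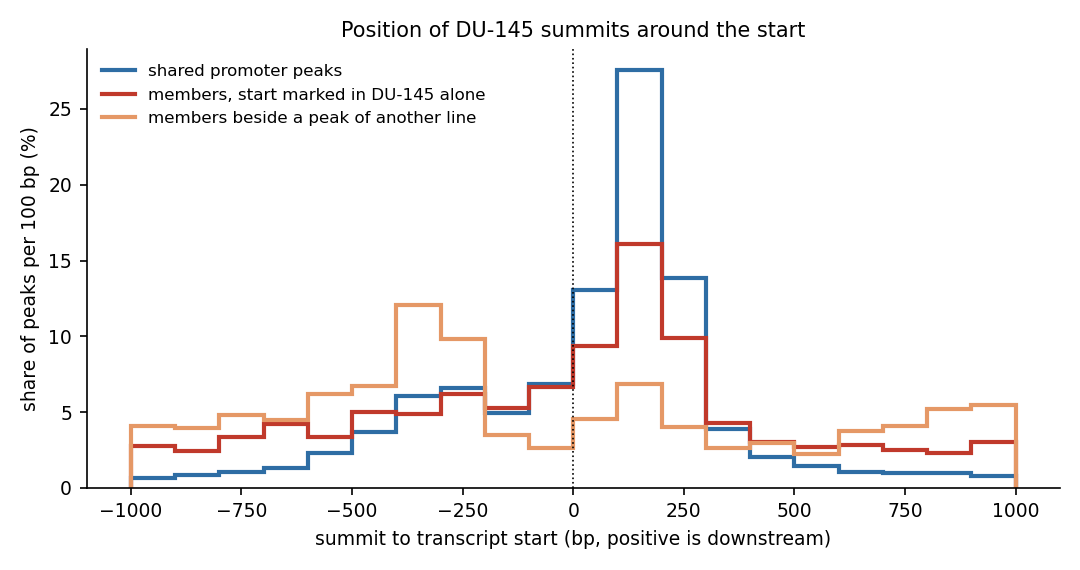
Position of DU-145 summits relative to the nearest transcript start in bins of 100 bp (x axis, positive is downstream), as the share of the 1825 lone peaks, the 1843 peaks beside a peak of another line and the 12458 shared peaks (y axis). Lone and shared peaks are most frequent at 100 to 200 bp downstream (16.1% and 27.6%), and peaks beside another line's at 300 to 400 bp upstream (12.0%).

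CpG content differed between the kinds of promoter peak. A start was called CpG-rich when the 1 kb around it had a GC content of at least 50% and a ratio of observed to expected CpGs of at least 0.6. By this measure 44.1% of lone peaks, 73.3% of peaks beside another line's and 86.8% of shared peaks were at CpG-rich starts. Of the canonical starts of all genes 65.9% were CpG-rich, and of the genes unmarked in every line 20.9%. Only 54.2% of lone peaks were at a canonical start. Their comparison with all genes thus mixes the kind of start with the kind of peak. Of the 826 DU-145-only promoter peaks at the canonical start of a gene marked in DU-145 alone, 71.9% were at CpG-rich starts. That share lies above the 65.9% of all genes. Among lone peaks the 805 at CpG-rich starts were at a canonical start in 87.2% and had a median width of 441 bp and a fold of 3.68. The 1020 at CpG-poor starts were at a canonical start in 28.2%, were narrower (336 bp) and had a median fold of 4.15. CpG-rich lone peaks were thus mostly at canonical starts and CpG-poor ones mostly at alternative starts. A start of an opposite-strand gene within 1 kb upstream was found for 3.51% of lone peaks, 10.7% of peaks beside another line's, 11.8% of shared peaks and 11.9% of all genes.

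**Figure D2:**
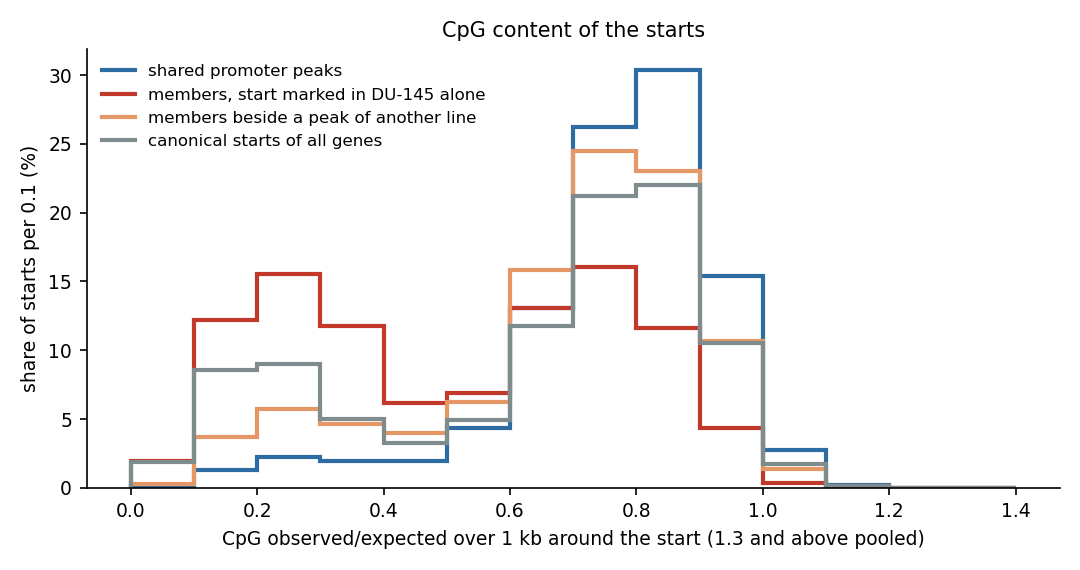
Ratio of observed to expected CpGs over 1 kb around the start (x axis) for lone peaks, peaks beside a peak of another line, shared promoter peaks and the canonical starts of all genes, as a share of each set per 0.1 (y axis). The median is 0.540 for lone peaks, 0.745 for peaks beside another line's, 0.796 for shared peaks and 0.731 for all genes. Peaks are taken at their nearest start, which need not be canonical.

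Motifs were counted in the 300 bases from 250 before to 50 after the start, on both strands. Lone and shared peaks were counted at their nearest start, and all promoters are the canonical starts of all genes. Since 28.2% of CpG-poor lone peaks were at a canonical start, comparisons with all promoters mix the kind of start with the kind of peak. The AP-1 motif, bound by the FOS and JUN family, was in 8.44% of lone promoters, 4.32% of shared ones and 5.39% of all. TGTGGT, a RUNX motif, was in 13.04%, 8.39% and 10.6%, and the TATA box in 10.4%, 4.13% and 9.67%. The GC box was in 48.9% of lone, 75.02% of shared and 62.0% of all promoters, and CCGGAAG, an ETS motif, in 7.07%, 17.8% and 14.2%. At CpG-poor starts the AP-1 motif was in 12.6% of lone, 13.6% of shared and 10.2% of all promoters. At CpG-rich starts it was in 3.11%, 2.904% and 2.89%. The RUNX motif was in 18.6%, 16.5% and 17.1% at CpG-poor starts, and at CpG-rich ones it was less frequent in lone promoters, with 5.96%, 7.16% and 7.23%. The TATA box was in 15.7%, 7.36% and 19.6% at CpG-poor starts and in 3.73%, 3.63% and 4.54% at CpG-rich ones. In both classes the share of lone promoters was below that of the canonical starts of all genes. The GC box was in 82.9%, 80.0% and 80.6% at CpG-rich starts, but in 22.1%, 42.3% and 26.1% at CpG-poor ones. The ETS motif was less frequent in lone promoters in both classes, with 12.2% against 18.98% in shared ones at CpG-rich starts and 3.04% against 10.2% at CpG-poor ones. In the 150 bases on each side of the summit the shares in lone peaks were lower for AP-1 (5.04%), TATA (5.53%) and ETS (3.84%), against 3.06%, 2.03% and 7.79% in shared peaks. The RUNX motif was in 15.3% of lone and 8.65% of shared peaks there.

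L3MBTL4, which codes for a chromatin reader of the polycomb-related MBT family, had the strongest DU-145-only promoter peak. Its fold was 17.1, with 87 tags at the summit (exact Poisson 95% interval 69.7 to 107) over a background of 4.16. The nearest peak was 134798 bp away for OVCAR-3, 514007 bp for COLO-205 and 1118228 bp for SKOV-3. Its summit lay 20 bp downstream of a CpG-rich start at 6414797 of chromosome 18, and 13 more DU-145-only peaks away from promoters lay within 50 kb of this start. The stretch shown above lies before the canonical start of the gene, at 6414910.

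EDIL3, a secreted integrin-binding protein of the extracellular matrix, had the second highest fold among lone peaks, 10.4, and the greatest width of the DU-145-only promoter peaks, 3465 bp. The summit held 82 tags (65.2 to 102). The nearest peak was 35788 bp away for COLO-205, 869766 bp for OVCAR-3 and 869774 bp for SKOV-3.

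The other 10 of the 12 lone peaks with the highest fold lay between 8.39 and 9.20. Of these, 5 belonged to genes marked in DU-145 alone: PCDHB2 (9.05), a clustered protocadherin, LHFPL4 (8.99), which organizes inhibitory synapses, ATP8B2 (8.70), a phospholipid flippase, LOXL2 (8.69), a lysyl oxidase that cross-links collagen, and NEXN (8.39), an actin-binding protein. LHFPL4 had its nearest peak 46706 bp away for OVCAR-3, 155075 bp for COLO-205 and 154682 bp for SKOV-3. The remaining 5 genes had another start that was marked in another line. They were CHRNB1 (9.20), a subunit of the muscle acetylcholine receptor, the SRC-family kinase LYN (8.996), the sorting nexin SNX8 (8.81), SQOR (8.77), which oxidizes sulfide in mitochondria, and LPP (8.71), a LIM protein of focal adhesions. LYN, SNX8, SQOR and LPP had their peak at an alternative start. ATP8B2, LOXL2 and CHRNB1 lay in stretches of 1 Mb of which DU-145 peaks covered over 10%.

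**Figure D3:**
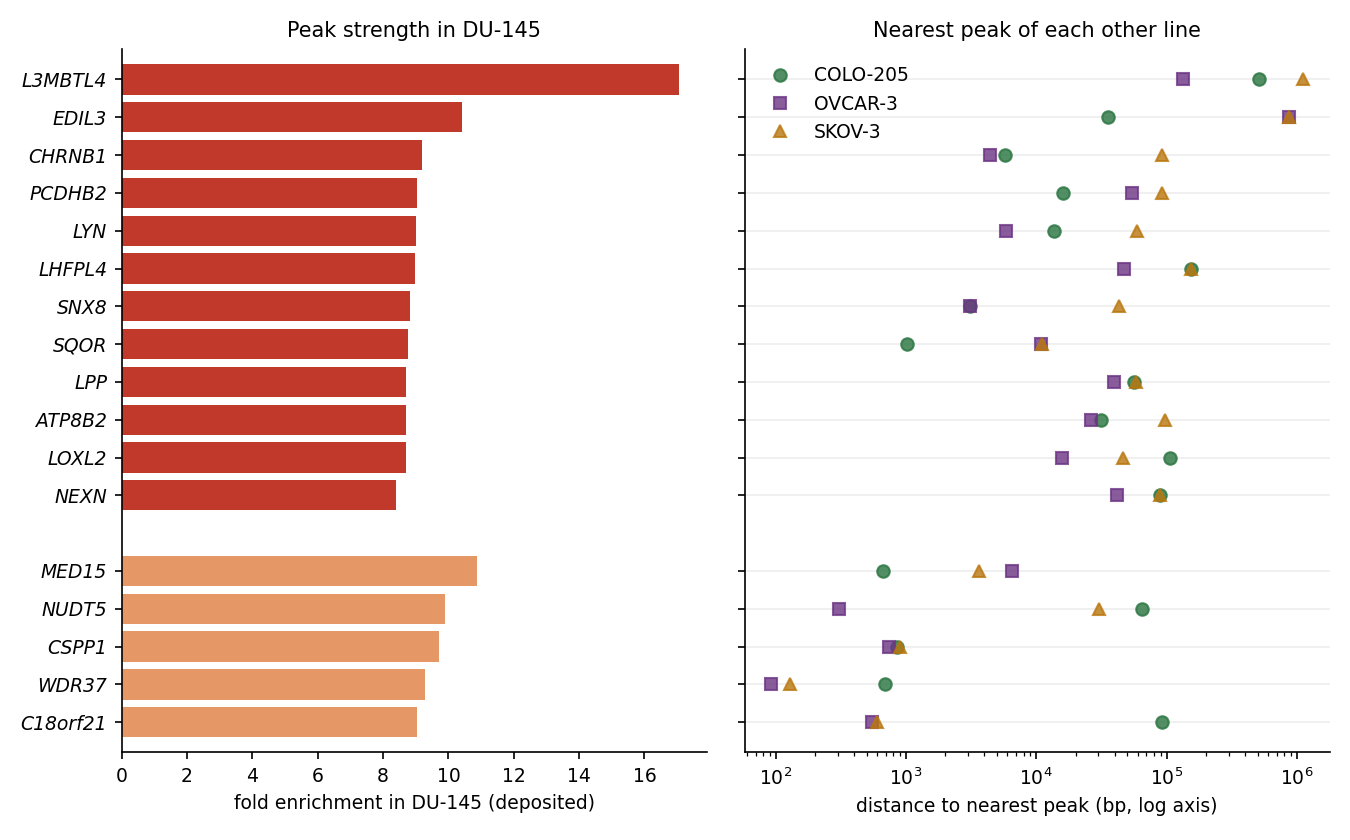
Fold enrichment in DU-145 (left, bars from 0) and distance to the nearest peak in each of the other lines (right, log axis) for the 12 genes with the strongest lone peaks (red) and the 5 with the strongest peaks beside a peak of another line (orange). Distances of the lone peaks run from 1023 bp (SQOR, COLO-205) to 1118228 bp (L3MBTL4, SKOV-3), while WDR37 has an OVCAR-3 peak 92 bp away.

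Beside a peak of another line the highest folds were 10.9 at MED15, a Mediator subunit, 9.91 at NUDT5, an ADP-ribose hydrolase, 9.73 at the centrosomal CSPP1, 9.28 at WDR37 and 9.05 at C18orf21. At WDR37 the nearest peaks were 92 bp away for OVCAR-3, 128 bp for SKOV-3 and 694 bp for COLO-205. The peak of MED15 was at a CpG-poor alternative start, in a stretch of 1 Mb of which DU-145 peaks covered 20.8%.

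The 5 widest lone peaks were those of EDIL3, SOCS2 (3080 bp), ARHGAP45 (2939 bp), EPAS1 (2842 bp) and FLNC (2827 bp). SOCS2, a feedback inhibitor of cytokine signaling through STAT proteins, had a fold of 6.15 and 101 tags, and its nearest peaks were 101882 bp away for OVCAR-3, 104606 bp for SKOV-3 and 127876 bp for COLO-205. EPAS1, which codes for the hypoxia-inducible factor HIF-2α, had a fold of 5.46 and 81 tags (64.3 to 101), with the nearest peaks 10569 bp away for COLO-205, 67753 bp for SKOV-3 and 108145 bp for OVCAR-3. FLNC, the muscle filamin, had a fold of 6.52, and its nearest COLO-205 peak was at 8320 bp. ARHGAP45, a GTPase-activating protein, had a fold of 5.85 at an alternative start in a stretch covered to 16.2% by DU-145 peaks. CDKN1A, which codes for the cell cycle inhibitor p21 and was chosen after its values were seen, had a peak of 1582 bp with a fold of 4.47 and 80 tags (63.4 to 99.6). The nearest peaks to CDKN1A lay 83889 bp away for OVCAR-3, 83991 bp for SKOV-3 and 116791 bp for COLO-205.

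Some genes held several of the peaks. Of the 3123 genes 2470 held 1, 524 held 2 and 129 held 3 or more, the most being 12 in GRAMD1B, 10 in ADA2 and 8 each in FHOD3 and LDLRAD4. GRAMD1B codes for a cholesterol transporter and FHOD3 for a formin of the sarcomere. Peaks within 1 gene are not independent of each other.

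Among the genes of prostate identity, 2 of 14 luminal markers were marked in DU-145 alone (14.3%, beside 4.44% of all genes), and SPDEF was one of them. SPDEF, an ETS factor of secretory epithelia, had a fold of 2.89 and 41 tags, and no other line had a peak within 11441 bp. Of the basal markers only CD44, the hyaluronan receptor, had a DU-145-only promoter peak (fold 3.33), 329 bp from a SKOV-3 peak. Neuroendocrine (12 genes), colon (14) and ovarian (10) markers had none.

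Genes of epithelial and mesenchymal state had DU-145-only peaks mostly at promoters that other lines marked too. Such peaks were at 5 of 17 epithelial genes, namely EPCAM, CLDN4, ST14, KRT19 and CDH1, and none of them was marked in DU-145 alone. They were at 5 of 16 mesenchymal genes, TGFBI, AXL, CAV1, CAV2 and LOX, of which LOX, a lysyl oxidase, was marked in DU-145 alone (fold 2.71). None of 9 transcription factors of the epithelial to mesenchymal transition had one. Both lists lie above the 17.1% of all genes with a DU-145-only promoter peak, at 29.4% and 31.3%.

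Some of the factors that the study predicted as master regulators of DU-145 were looked up as well. FOSL1, an AP-1 subunit, had a DU-145-only peak upstream of a start (fold 4.85), 342 bp from a SKOV-3 peak, 343 bp from a COLO-205 peak and 9309 bp from the nearest OVCAR-3 peak. SETDB1, a histone H3 lysine 9 methyltransferase, had one with a fold of 5.13, 309 bp from an OVCAR-3 peak, in a stretch covered to 21.5% by DU-145 peaks. Both promoters were thus marked in other lines. Of 9 AP-1 family genes, FOSB was marked in DU-145 alone, with a fold of 4.22 and 72 tags, and FOSL1 and MAFF had peaks beside those of other lines.

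Inflammatory genes had the largest share marked in DU-145 alone of the 29 lists. IL24, BIRC3, IL11 and IL32 were marked in DU-145 alone, 4 of 22 inflammatory and NF-kB target genes (18.2%, beside 4.44% of all genes). IL24, a cytokine of the IL-10 family, had a fold of 4.93 and its nearest peak 2296 bp away for OVCAR-3. BIRC3, an inhibitor of apoptosis, had 4.50 with its nearest peak at 6927 bp for COLO-205. IL11, a cytokine of the IL-6 family whose promoter is shown above, had 3.56 and 47 tags, and no other line had a peak within 13904 bp. IL32, an inflammatory cytokine, had 3.04 with its nearest peak at 1970 bp for COLO-205. The count rests on peaks of moderate height. IL32 was lost when all lists were limited to a −log10 q of at least 10, and IL24, IL11 and IL32 were lost when all lists were made equally long, which left BIRC3. None of the 4 had a fold over 5, and IL6, CXCL1 and CXCL2 were marked in OVCAR-3 as well.

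Interferon response genes had DU-145-only promoter peaks at 6 of 20 (30%, beside 17.1% of all genes). Of the 20, 1 gene, IFI6, was marked in DU-145 alone (5%, beside 4.44% of all genes). It was lost from this set when all lists were made equally long. IFI6, an interferon-induced mitochondrial protein, had a fold of 5.52 and 33 tags, and the nearest peaks were 11872 bp away for OVCAR-3, 50146 bp for COLO-205 and 53603 bp for SKOV-3. IRF1 (5.24), IFIT3 (4.29), OAS3 (4.90), MX1 and MX2 had their DU-145-only peaks at genes that another line also marked at some start.

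A list of growth factor ligands of the FGF, WNT, BMP, TGF-beta, IGF and other families included 5 genes of 80 marked in DU-145 alone (6.25%). They were TGFB1, EREG, WNT5B, BMP8A and NRG4, of which EREG and NRG4 are of the EGF family. TGFB1 had a peak of 1555 bp at its canonical start, with a fold of 4.36 and 64 tags, and its nearest peaks were 9846 bp away for OVCAR-3, 9852 bp for SKOV-3 and 42057 bp for COLO-205. EREG, a ligand of the EGF receptor, had a fold of 3.56, and all 3 lines had their nearest peak between 9856 and 9957 bp away. Guidance molecules had a larger share, with 7 of 68 ephrins, semaphorins, netrins and their receptors (10.3%). They were SEMA6B (6.65), ROBO4 (5.30), EPHA10 (5.02), SEMA3C (4.56), ROBO3, SEMA7A and SEMA4F. SEMA3C had no peak of another line within 16850 bp.

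Receptors and channels were near the background. Of 242 G protein-coupled receptors 13 were marked in DU-145 alone (5.37%), among them the serotonin receptor HTR7 (5.59), the adrenergic receptor ADRB1 (5.34) and the prostaglandin receptor PTGER1 (4.74). ADRB1 had 58 tags, and its nearest peaks were 16793 bp away for OVCAR-3, 45385 bp for COLO-205 and 111235 bp for SKOV-3. Of 224 ion channel genes 11 were (4.91%), among them the ATP-gated P2RX5 (6.94) and the sodium channel SCN8A (6.49). Solute carriers had 12 of 339 (3.54%), matrix and integrin genes 4 of 83 (4.82%) and keratins 1 of 55 (1.82%).

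Developmental transcription factors other than HOX genes were marked in DU-145 alone at 12 of 119 homeobox genes (10.1%) and at 5 of 114 SOX, FOX, GATA, TBX and bHLH genes (4.39%). BARHL2, a neural homeobox factor, had a fold of 7.02 with its nearest peak 4910 bp away for COLO-205. IRX3 (4.26) and ONECUT1 (4.23) belonged to the same group, and FOXD3 (4.71) led the other. HOX genes had DU-145-only peaks at 7 of 39 (17.9%, beside 17.1% of all genes). Of these, HOXC8, HOXD1 and HOXC13 were marked in DU-145 alone (7.69% of the list, beside 4.44% of all genes). In the HOXC cluster, which specifies posterior position, 5 of 9 genes had such a peak. The strongest was HOXC9, with a fold of 7.14 and 73 tags, followed by HOXC8 (5.11), HOXC10 (4.95), HOXC6 (4.32) and HOXC13 (3.40). COLO-205 marked 4 genes of the cluster at some start, OVCAR-3 2 and SKOV-3 none.

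Housekeeping genes with a DU-145-only promoter peak were mostly marked in another line at some start. Of 76 genes of cytosolic ribosomal proteins 20 had a DU-145-only promoter peak (26.3%), and none was marked in DU-145 alone. Of 173 mitochondrial ribosome and respiratory chain genes 26 had one and 2 were (1.16%). Histone genes had 2 of 71 and olfactory receptors 4 of 365 (1.10%). Germline genes had 3 of 28 (10.7%), namely DDX25, PIWIL2, which binds piRNAs, and the testis bromodomain protein BRDT. PIWIL2 and BRDT were lost when all lists were limited to a −log10 q of at least 10. With equally long lists DDX25 was lost as well.

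**Figure D4:**
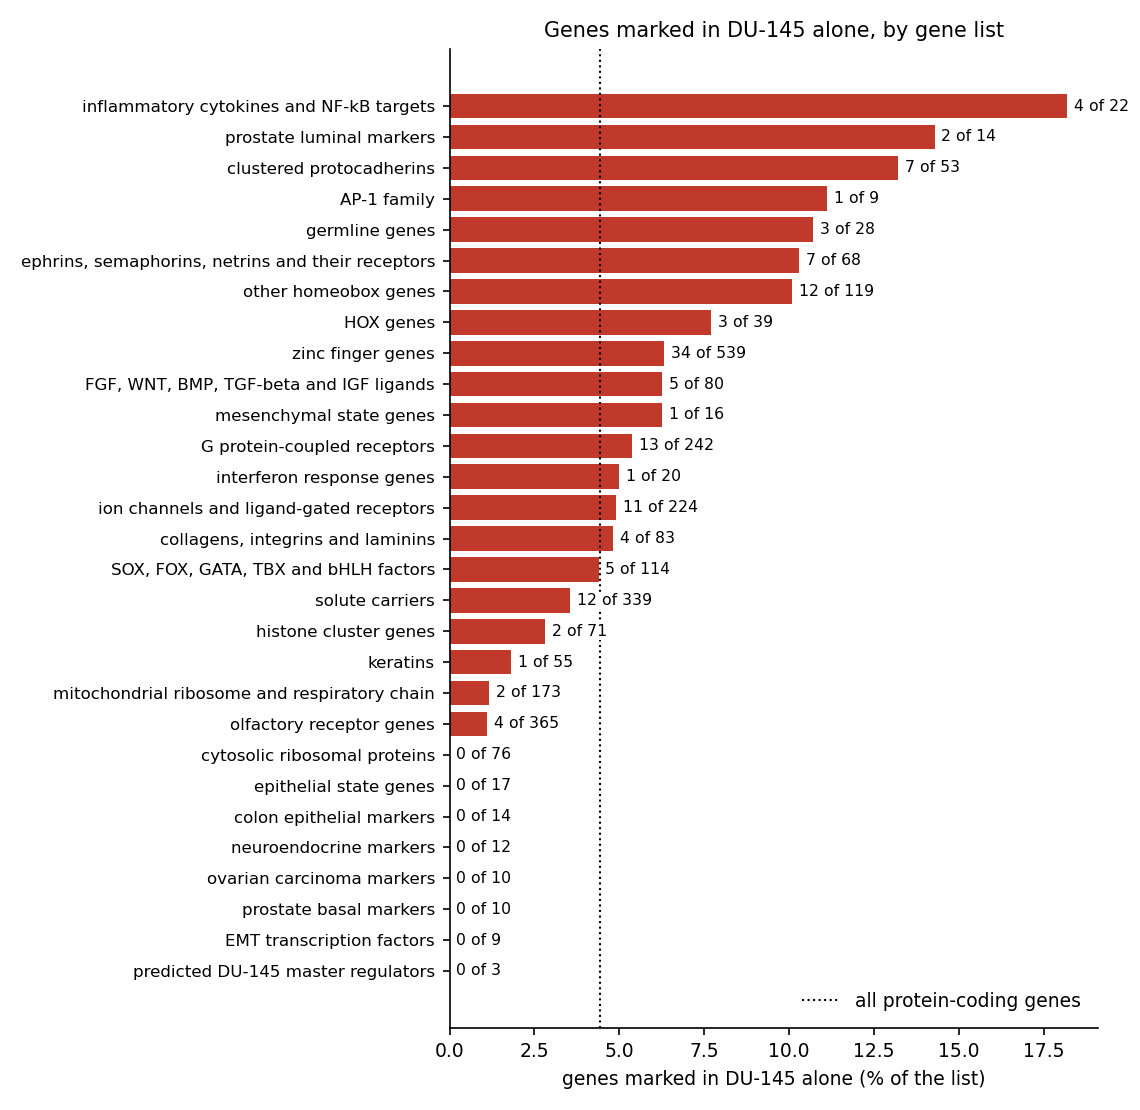
Share of each of 29 gene lists that was marked in DU-145 alone (bars from 0, with the number of genes beside each bar), and the share of all protein-coding genes, 4.44% (dotted line). Lists of inflammatory genes, luminal markers and clustered protocadherins have the longest bars, each from 7 genes or fewer.

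Clustered protocadherins, cell surface proteins that give neurons their identity and are each read from their own promoter, were marked in DU-145 alone at 7 of 53 (13.2%). They were PCDHB2 (9.05), PCDHA13 (7.97), PCDHGB5 (5.03), PCDHA4 (4.40), PCDHB6 (4.04), PCDHAC1 (3.66) and PCDHAC2 (2.96). In the same list COLO-205 marked 21 genes, DU-145 14, SKOV-3 3 and OVCAR-3 none. PCDHA4 lay 1527 bp and PCDHGB5 1492 bp from the nearest COLO-205 peak. The promoters of this family resemble each other, so reads can be hard to place, and how multiply mapping reads were treated is not given in the sources used here.

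Zinc finger genes had the largest number of genes marked in DU-145 alone of any list, 34 of 539 (6.31%), and 12 of them were neighbors. They lie in a cluster on 19q13.31 that holds 19 genes named ZNF, most of which code for KRAB zinc finger repressors. ZNF155, ZNF230, ZNF222, ZNF223, ZNF284, ZNF224, ZNF225 and ZNF234 formed an unbroken run of 8 genes, with canonical starts from 44488340 to 44645707 of chromosome 19. This was the longest of 14 runs of 3 or more neighboring genes marked in DU-145 alone, and the next longest had 4 genes. The other 4 genes of the cluster marked in DU-145 alone were ZNF283, ZNF227, ZNF285 and ZNF229. In all, DU-145 marked 16 of the 19 genes, OVCAR-3 marked 3 (ZNF45, ZNF226 and ZNF235), SKOV-3 marked ZNF221 and COLO-205 marked none. Across all 539 zinc finger genes OVCAR-3 marked 384, DU-145 385, COLO-205 250 and SKOV-3 236.

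Peaks of the cluster were moderate in height. Their folds ran from 2.98 at ZNF284 (36 tags) to 4.83 at ZNF223 (42 tags), with 4.43 at ZNF155 (51 tags) and 4.39 at ZNF225 (40 tags). Counted from the strongest peak of each gene, the nearest peak of any other line lay between 1527 bp (ZNF230) and 41994 bp (ZNF283) away. ZNF230 had the widest peak, 1067 bp. In the surrounding 1 Mb, DU-145 peaks covered 3.46% of the bases against 0.466% in OVCAR-3, 0.337% in COLO-205 and 0.273% in SKOV-3. Of 36 protein-coding genes of this stretch 18 were marked in DU-145 alone.

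**Figure D5:**
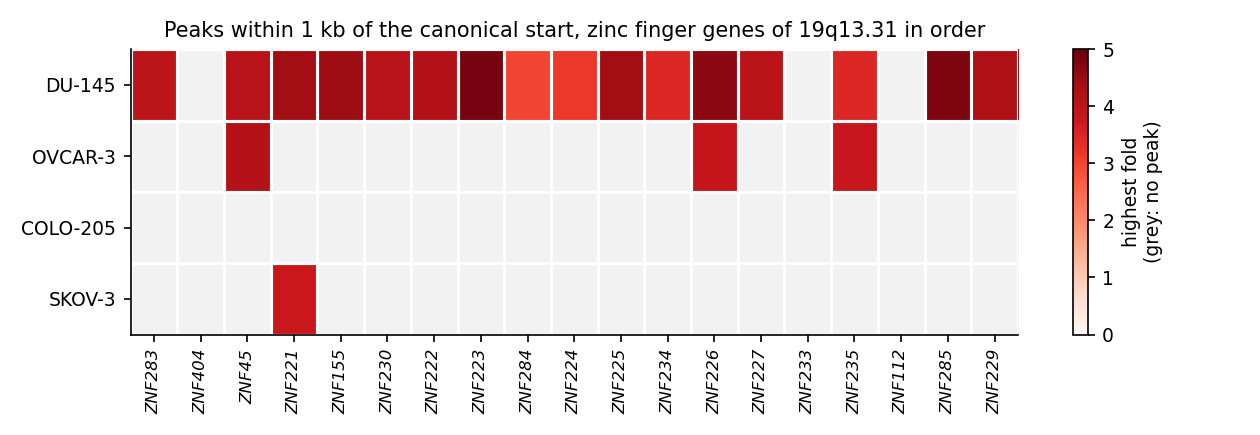
Highest fold enrichment of a peak within 1 kb of the canonical start for the 19 zinc finger genes of the 19q13.31 cluster in genomic order (x axis) in each line (y axis), with grey where no peak was listed. DU-145 marks 16 genes, OVCAR-3 3, SKOV-3 1 and COLO-205 none.

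Promoters of this cluster shared the letters TTCTGGG seen in the sequences above. All 12 genes marked in DU-145 alone had this run on 1 of the strands within the 300 bases around the canonical start, as did 5 of the other 7 genes of the cluster. Outside the cluster it was in 71 of 474 zinc finger genes (15.0%), and among all genes in 7.96%. The run was chosen after the sequences had been seen, and it was not limited to the genes marked in DU-145 alone. Where AA follows, it overlaps the STAT motif TTCNNGGAA.

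Metallothionein genes on 16q13 formed a smaller group of the same kind. These genes code for small proteins that bind zinc, copper and cadmium and respond to metal load. MT1E, MT1M, MT1A and MT1F were marked in DU-145 alone, of 10 genes in the cluster. MT1E had a fold of 5.33 over 2480 bp with 69 tags, MT1M 5.02, MT1A 4.79 and MT1F 2.99. The nearest peaks of MT1E were 14350 bp away for SKOV-3, 35775 bp for COLO-205 and 54894 bp for OVCAR-3. MT2A was marked in DU-145 and SKOV-3, MT1X in DU-145 and OVCAR-3, and COLO-205 marked none. The group was chosen after its values were seen, and the genes are near copies of each other.

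Chromosomes differed in how many of the peaks they held. Per 100 protein-coding genes chromosome 18 had 40.1 DU-145-only promoter peaks, chromosome 16 30.5 and chromosome 17 27.7, against 8.22 on chromosome 20, 7.71 on chromosome 3 and 1.57 on chromosome 13. On chromosome 13 the 5 peaks included no lone one, and 2.92% of the promoter peaks were DU-145-only, against 36.3% on chromosome 18. Along the chromosomes, the stretches of 1 Mb with the most peaks were 2 on chromosome 17, from 7 to 8 Mb with 31 peaks and from 40 to 41 Mb with 30, before the zinc finger stretch of chromosome 19 with 26. The first holds CHRNB1, POLR2A and EIF4A1 among its genes and the second STAT3, STAT5A, STAT5B and CAVIN1. DU-145 peaks covered 12.3% and 11.3% of these 2 stretches, and at most 3.83% in any other line. Of all lone peaks 189 (10.4%) lay in surroundings of 1 Mb covered to over 10% by DU-145 peaks. Without the DU-145-only promoter peaks of such surroundings, 3318 of the 3668 peaks and 764 of the 812 genes remained. Local peak density thus moves with part of the peaks, and its part in the result was not tested.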

How the data were processed

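H3K27ac ChIP-seq was deposited as 1 peak list per line. Reads had been mapped to hg19 with Bowtie2 2.1.0 and peaks called with MACS2 2.1.0.20150603 at a q-value below 0.001, per the authors' methods and processing notes. The deposited columns used were the position and summit, the fold enrichment (a ratio to the local background), the −log10 p-value and −log10 q-value, and a score that repeats the q-value. The methods describe merging of peaks closer than 350 bp, but the lists hold closer neighbors, so they were used as deposited and merged only as an alternative.

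Summits were set against 72669 starts of 18272 protein-coding genes of GENCODE release 44 on hg19, and the canonical start is the one that annotation tags. A gene was counted with every peak within 1 kb of its starts. Tags at the summit and the background were recovered from the fold enrichment and p-value of each peak, which assumes the Poisson test of the caller, and depth was estimated from the lowest background, the narrowest peak and 2700000000 mappable positions. Promoter sequence was read from hg19, and 15 motifs were searched on both strands. Chromosome 14, the window chr22:18000001-19000000 and the sex chromosomes were left out, and what lies there is not reported here.

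With 1 library per line no test was run. Exact Poisson and exact binomial (Clopper-Pearson) intervals at 95% cover counting error only. Named genes were the 12 highest folds among lone peaks, the 5 highest among the others, the 5 widest lone peaks, genes with 3 or more peaks, up to 4 genes per list by fold, the predicted master regulators, the 3 peaks nearest on each side of the 1 kb limit and genes of the 3 densest stretches. Other genes, among them further members of lists, the metallothionein genes, CDKN1A and those of the other observations, were chosen after their values were seen. The members, the 29 gene lists and the motifs were chosen with earlier results of these data known. On simulated intervals with known answers, the scripts found 500 of 500 members and the right distance for 400 of 400 peaks, and tags were recovered for 19872 of 19923 peaks (99.7%). The work used samtools 1.23.1 and pysam 0.24.0 for sequence, pandas 2.3.3 and numpy 2.4.6 for the tables, scipy 1.17.1 for intervals and matplotlib 3.10.9 for figures, under Python 3.11.15.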

Additional observations from a re-analysis of the deposited data

How the results depend on the processing

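No paired analysis was possible because each line has 1 library and no result comes from a test. The number of 3668 DU-145-only promoter peaks changed to 2300 when every list kept only peaks with a −log10 q from 10 upward, 1766 with equally long lists, 2136 with peaks under 350 bp apart merged, 2318 within 500 bp and 5929 within 2 kb of a start, 2251 with outermost starts, 7604 without the OVCAR-3 list and 2320 with canonical starts. The 3123 genes became 1851 with equally long lists, 1970 after merging and 6049 without OVCAR-3. The 812 genes marked in DU-145 alone became 1230 without COLO-205 and 2734 without OVCAR-3, and lay between 711 and 1147 under the other settings. At this q limit, 451 of the 812 genes stayed in this set, and with equally long lists 184. The share of lone peaks, 49.8%, became 60.9% at that q, 72.9% with equally long lists, 70.9% with peaks within 350 bp counted as overlapping or merged, 34.7% with an overlap of at least 50% required, 55.7% within 500 bp, 44.3% within 2 kb, 42.9% with outermost starts, 57.6% without COLO-205, 64.9% without OVCAR-3 and 42.3% with canonical starts. The share at CpG-rich starts, 58.8%, became in the same order 71.5%, 82.8%, 49.98% (counted as overlapping) or 48.7% (merged), 65.2%, 62.6%, 56.5%, 76.5%, 69.7% without OVCAR-3 and 81.25% with canonical starts. It was 56.9% with the left-out autosomal parts kept, 60.5% without dense surroundings, 33.6% with a stricter CpG limit and 60.9% over 500 bp. The median fold, 3.87, became 3.93 with a −log10 q limit of 5 and with the 350 bp overlap, 4.50 at 10, 5.07, 4.02 with the 50% overlap, 3.96 after merging, 3.77 within 500 bp, 3.97 within 2 kb, 3.75 with outermost or canonical starts and 3.91 without OVCAR-3 or with the left-out parts kept. Of 100 named genes marked in DU-145 alone, 78 stayed in the set at the q limit of 10 (lost were SPDEF, LOX, WNT5B and BMP8A among others) and 49 with equally long lists (lost were also IFI6, EREG, SEMA3C, IRX3 and HOXC8). The settings of canonical starts and dense surroundings were chosen after seeing the data, as was the use of every setting for the 812 genes. The causes of these shifts were not tested. All 12 strongest lone genes stayed among the members under 11 of 15 settings. SKOV-3 had the lowest recovered depth and the shortest list, and the part that depth plays in this was not tested.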

Other observations

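Single genes marked in DU-145 alone that belong to none of the lists are given here as values. They were chosen after their values were seen and stand for no group. CYP1A1, the inducible oxidase of aromatic hydrocarbons, had a peak of 1644 bp with a fold of 4.36, and its nearest peaks were 6807 bp away for COLO-205, 28672 bp for OVCAR-3 and 55439 bp for SKOV-3. GSTM1, a glutathione transferase, had a fold of 6.96, but close copies of this gene lie beside it and the placing of its reads is uncertain. GLRX, a glutaredoxin, had a fold of 8.01, with a COLO-205 peak 504 bp away. DKK1, a secreted WNT inhibitor, had a peak of 1949 bp with a fold of 6.11 and 75 tags, and no other line had a peak within 31841 bp. GSDME, a gasdermin that forms pores in dying cells, had a fold of 6.09 over 1468 bp, with the nearest peak 42980 bp away for COLO-205.

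On chromosome 11, ACAT1, NPAT and ATM formed one of the runs of 3 neighboring genes marked in DU-145 alone. ATM, the kinase of the DNA damage response, and NPAT, a coactivator of histone genes, start on opposite strands and share a peak with a fold of 5.37 and 63 tags. Its nearest peaks were 54669 bp away for COLO-205, 54829 bp for OVCAR-3 and 99658 bp for SKOV-3. In the MHC region, chosen after its values were seen, 39 of 142 genes had a DU-145-only promoter peak and 12 were marked in DU-145 alone. Among all genes the shares were 17.1% and 4.44%. TAP1, the peptide transporter of antigen presentation, had a fold of 4.12 over 1574 bp, and HLA-F, a nonclassical class I gene, 5.22 over 1478 bp. HLA-DRB1 had 7.19, but it has close copies and the placing of its reads is uncertain.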
